A study of Drosophila melanogaster with 32 samples.

Results

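The genes described here encode nuclear subunits of the mitochondrial respiratory chain and of the ATP synthase in Drosophila melanogaster. Members are the nuclear genes of a RefSeq gene table (assembly Release 6) whose symbol begins with ND-, UQCR-, COX or ATPsyn, or is SdhA, SdhB, SdhC or SdhD. There were 84 of 17807 nuclear genes: 40 of complex I, 4 of complex II, 9 of complex III, 16 of complex IV and 15 of complex V. Their peaks were taken from 24 lists made by ChIP-seq, in which DNA bound by a protein is pulled down with an antibody and sequenced, in Kc167, a female cell line made from embryos. A peak belongs to a gene when its summit lies in the gene or within 250 bp of it, and where a gene has several peaks in a list the one with the highest fold enrichment is given.

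Cells received double-stranded RNA against M1BP (20 µg) or against Cp190 (12 µg) and were kept for 5 days. In M1BP knockdown cells and in a first set of mock-treated cells, peaks of M1BP, CP190, Su(Hw) and Mod(mdg4) were mapped. In CP190 knockdown cells and in a second set of mock-treated cells, peaks of M1BP and CP190 were mapped. The labels do not say in words that the second mock set is the control of the CP190 knockdown, and it was taken as such because it holds the same antibodies. Each of these 12 combinations had 2 libraries, and the sources used here do not say what the mock cells received. The study asks whether the insulator proteins need M1BP at their sites, and whether M1BP needs CP190.

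Electrons from NADH and succinate enter the chain at complexes I and II, pass through complex III and reach oxygen at complex IV. The ATP synthase, complex V, uses the proton gradient that this flow builds. Most subunits are made from nuclear genes, which every respiring cell keeps active. M1BP is a zinc finger protein that binds a core promoter element called Motif 1, found at many widely active fly genes. Su(Hw) is a DNA-binding insulator protein, and CP190 and Mod(mdg4) are its partners in insulator complexes.

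The lists held 1699 to 8443 peaks each and 113005 in all. The fold given for a peak is its deposited enrichment of ChIP over control, as the authors computed it. Folds are not scaled between lists, and the depth of the libraries is unknown. Lists are therefore compared by whether a peak is present and by its percentile rank in its own list, where 100 is the strongest. The M1BP lists held 1776 and 1699 peaks after M1BP knockdown and 2980 and 2781 in mock cells, and the CP190 lists 2031 and 2150 after CP190 knockdown and 8443 and 8197 in the second mock set. The lists do not say how much of either protein was left. An exact permutation test of 2 libraries against 2 cannot go below p = 0.333, so no single gene can pass a threshold of 0.05. A difference is described here by whether the 2 knockdown values overlap the 2 mock values. The labels do not say whether replicates were separate cultures.

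M1BP had a peak in both mock lists at 29 of the 84 genes (34.5%), against 17.6% of all nuclear genes, and in both lists of the second mock set at 42 (50.0%, against 22.7%). CP190 had one at 48 genes in mock cells (57.1%, against 34.0%) and at 49 in the second mock set (58.3%, against 36.9%). Su(Hw) and Mod(mdg4) had one at 3 genes each (3.57%), against 9.74% and 7.45% of all genes. Among protein-coding genes alone the shares were 21.4% for M1BP and 40.6% for CP190 in mock cells, and 27.7% and 44.1% in the second set. Of the 84 members, 64 had a peak of some kind in at least 1 of the 24 lists and 20 had none. These 20 were ND-42, ND-49, ND-AGGG, COX8, COX6AL, COX6AL2, COX6CL and 13 copies of other members that are named with the copies. The share of all genes without any peak is not given here. With any base of a peak counted, COX8 and ND-42 had M1BP and CP190 in some lists. ND-49L and UQCR-6.4L then had Su(Hw) in some lists.

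All 29 genes with M1BP in both lists of the first mock set also had it in both lists of the second. There, M1BP peaks of these 29 genes had folds of 8.34 to 45.8. The second set held 13 further genes. At ND-MWFE and ND-B15 the M1BP peaks of the first set reached the gene, but a summit lay outside the window in both lists of the first gene and in 1 list of the second. The other 11 genes were COX6B, COX7A, ND-24, ND-30, ND-75, ND-B12, ND-B14.5A, ND-B14.5B, ND-B18, ND-B8 and ND-MLRQ, and their folds of 2.41 to 6.71 lay below those of all 29 genes. In the second set these 11 were thus the genes with the weaker M1BP peaks.

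The share of genes with M1BP differed between the complexes. In mock cells M1BP had peaks at 13 of 40 complex I genes, 3 of 4 of complex II, 4 of 9 of complex III, 6 of 16 of complex IV and 3 of 15 of complex V. In the second set the numbers were 24, 3, 4, 8 and 3. CP190 had peaks at 24, 4, 5, 8 and 7 of these genes in mock cells. The genes of 1 complex were thus not uniformly bound: in complex V, M1BP was at ATPsynC, ATPsynD and ATPsynF, while ATPsynbeta, the catalytic subunit, had a single M1BP peak, with a fold of 4.60 in 1 list of the second mock set.

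**Figure D1:**
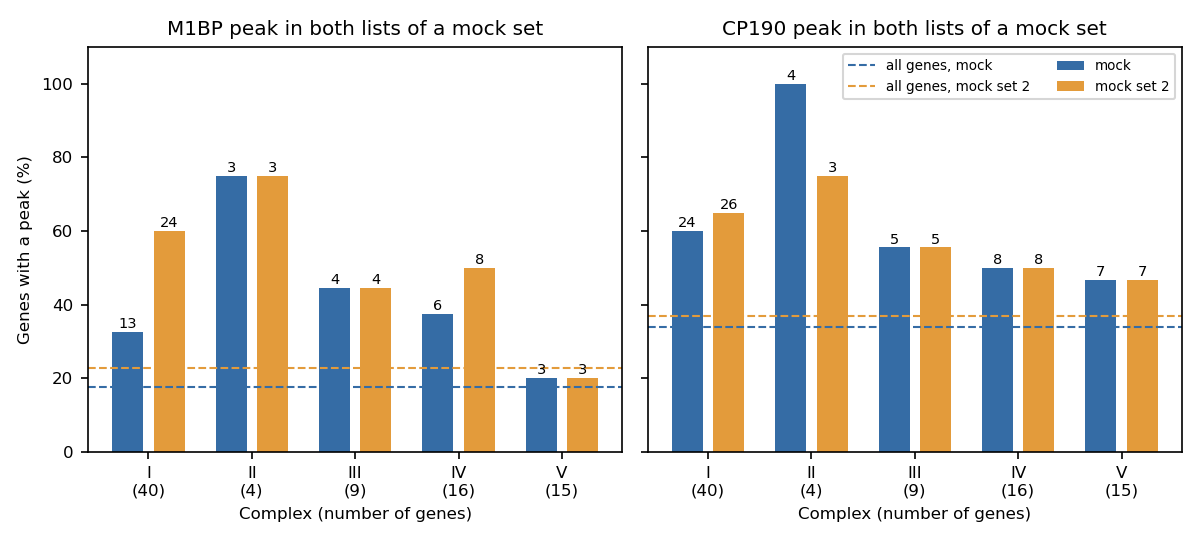
Percent of the genes of each respiratory chain complex with a peak of M1BP (left) or CP190 (right) in both lists of a mock set; numbers above the bars are gene counts and dashed lines are the shares of all nuclear genes. M1BP bars range from 3 of 15 genes in complex V to 3 of 4 in complex II, and complex I has 13 genes in the first mock set and 24 in the second.

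The strongest M1BP peaks of complex I lay at accessory subunits. ND-PDSW, a membrane arm subunit, had M1BP folds of 10.2 and 14.8 after M1BP knockdown, against 37.5 and 38.6 in mock cells. This mock peak was number 32 of 2980 and number 11 of 2781 by fold, and in the first list it spanned chr2L:3465690-3466772, with the summit 25 bp outside the gene and also within 250 bp of an end of msl-2. The next by mean mock fold were ND-SGDH (9.16 and 10.5 after M1BP knockdown, against 23.5 and 21.3 in mock cells) and ND-18 (3.25 and 3.96, against 21.7 and 23.0). Both are accessory subunits. Coordinates are those of the deposited lists, whose genome build the labels do not name and whose sequence names match dm6.

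In complex II the iron-sulphur subunit SdhB had M1BP folds of 5.56 and 6.15 after M1BP knockdown, against 36.0 and 34.1 in mock cells, numbers 50 and 38 in their lists. Its mock peak lay at chr2R:6807097-6808085 in the first list, with the summit at the end of the gene. SdhC, a membrane anchor, had 10.0 and 15.0 after M1BP knockdown, against 20.7 and 20.9 in mock cells. SdhA, the flavoprotein, had 9.87 and 15.1, against 17.2 and 13.7. The other membrane anchor, SdhD, had no M1BP peak in any of the 8 M1BP lists.

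In complex III the core protein UQCR-C2 had M1BP folds of 8.38 and 11.9 after M1BP knockdown, against 38.7 and 35.9 in mock cells, numbers 23 and 25 in their lists. The first mock peak spanned chr3L:16583778-16584767. UQCR-6.4, a small subunit, had 8.21 and 10.4 after M1BP knockdown, against 23.6 and 15.6 in mock cells. UQCR-Q, another small subunit, had 10.3 and 10.8, against 22.9 and 15.3. The second core protein, UQCR-C1, had CP190 and no M1BP peak in any list.

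In complex IV the highest mean mock folds for M1BP were those of COX5B (7.55 and 9.81 after M1BP knockdown, against 20.2 and 18.6 in mock cells), COX7AL2 (14.3 and 14.5, against 16.5 and 17.2) and COX5A (5.70 and 6.08, against 19.5 and 13.2). COX5A and COX5B are nuclear subunits that sit around the catalytic core. In complex V, ATPsynC, which forms the rotating ring, had M1BP folds of 13.5 and 18.9 after M1BP knockdown, against 31.8 and 29.6 in mock cells. ATPsynD, of the peripheral stalk, had 17.4 and 24.8, against 29.9 and 25.7. ATPsynF, a small membrane subunit, had 8.96 and 12.4, against 18.8 and 17.5.

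**Figure D2:**
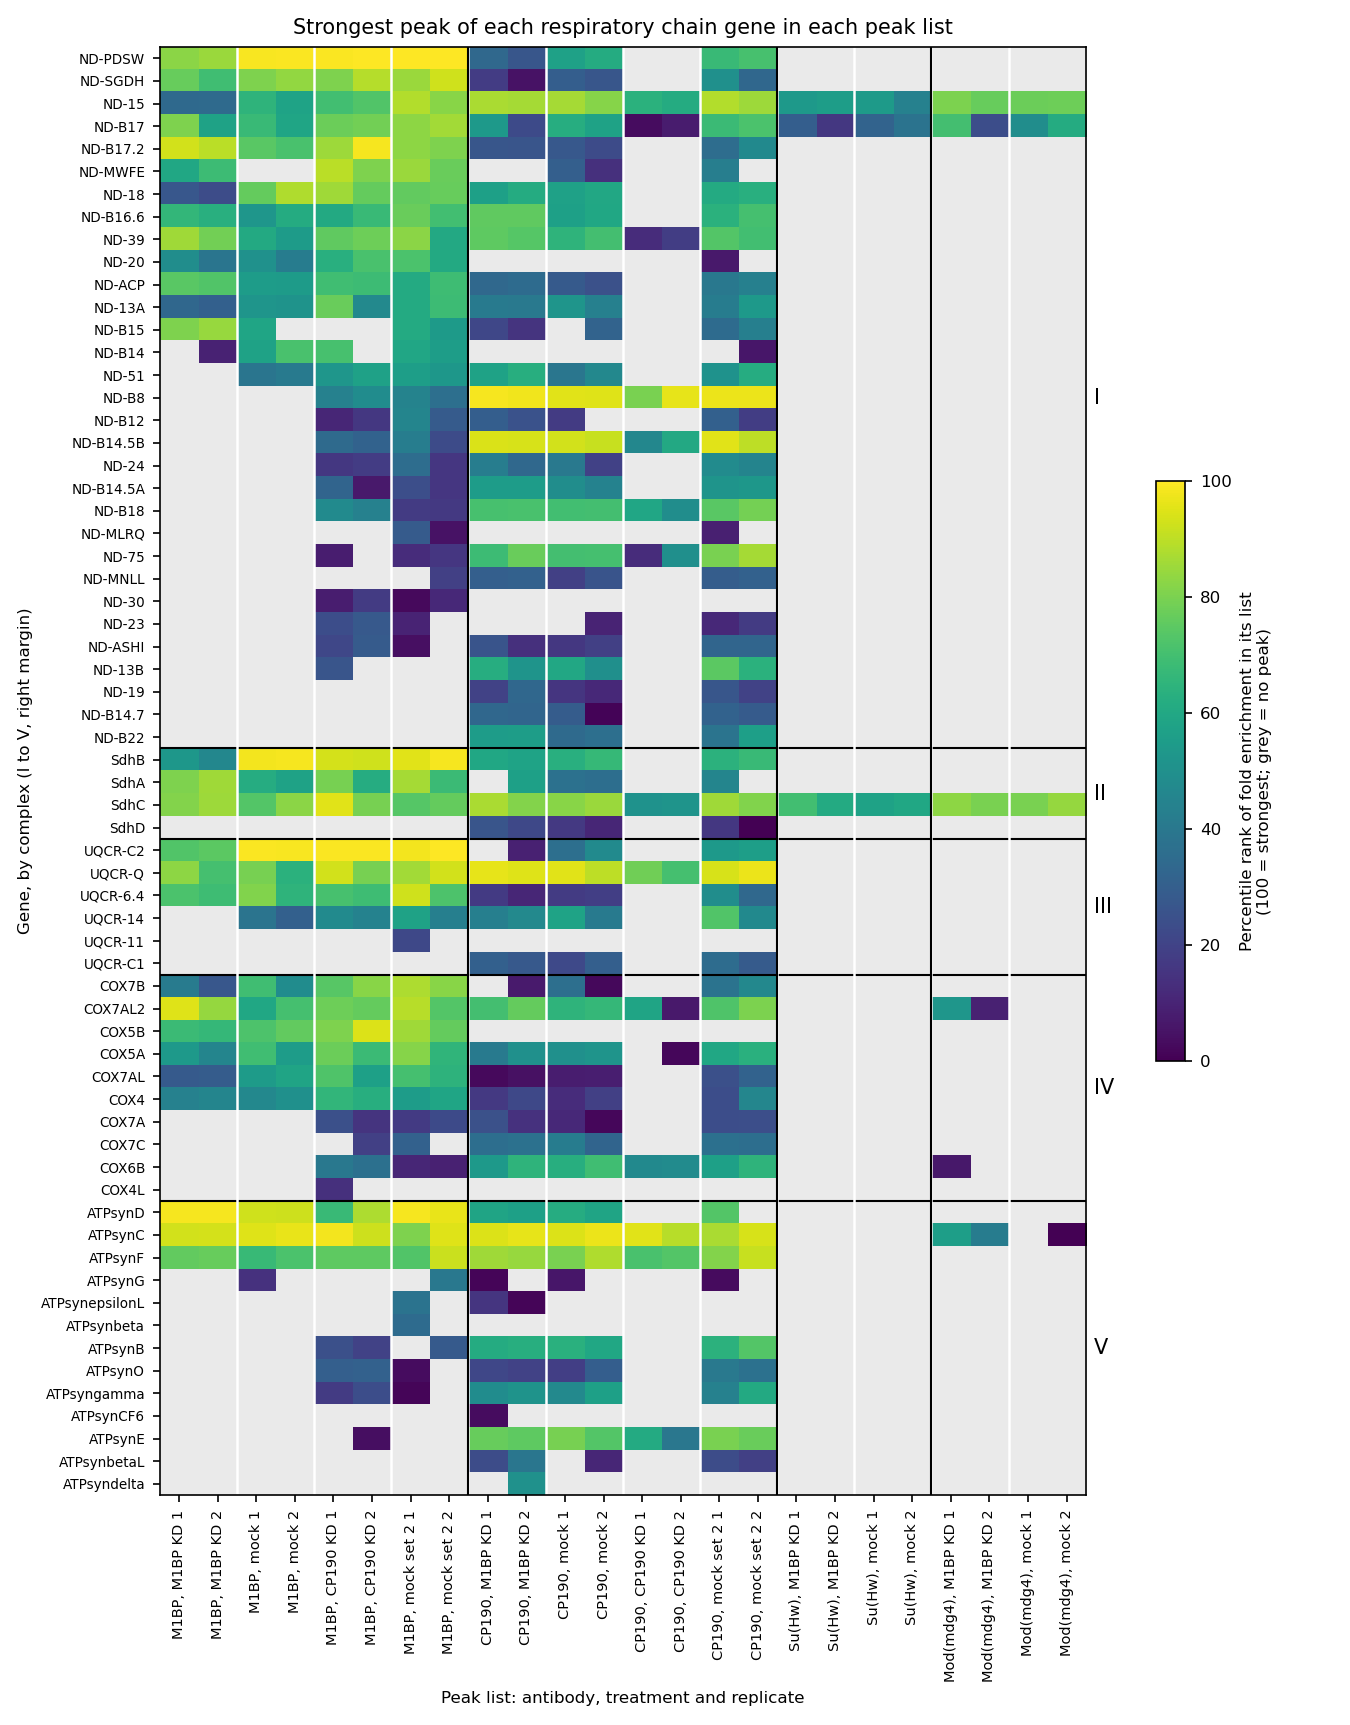
Percentile rank of the strongest peak (colour, 100 is the strongest in its list, grey is no peak) for the 64 genes with a peak in at least 1 of the 24 lists (rows, by complex and by M1BP rank in the second mock set) in each list (columns, by antibody, with each knockdown left of its mock set). M1BP columns stay coloured for 26 genes after M1BP knockdown, while most CP190 cells are grey after CP190 knockdown.

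Most M1BP summits lay near gene ends. After M1BP knockdown 92.9% and 93.1% of the members' M1BP summits lay within 250 bp of an end of their own gene, against 90.3% and 93.1% in mock cells, where the median distance was 32.0 bp in each list. Over all genes with M1BP the shares were 86.7% and 86.9% after M1BP knockdown, against 85.1% and 86.2% in mock cells. Members are short, with a median length of 1097 bp against 1695 bp for all genes, so much of their window lies near an end. In mock cells 51.6% and 51.7% of these summits were also within 250 bp of an end of another gene, so a peak there cannot be given to 1 gene alone. The gene table holds no strand, so starts and ends were not told apart. No peak was shared between 2 members.

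Of the 29 genes with M1BP in both mock lists, 26 also had CP190 in both (89.7%), against 80.0% of all genes with M1BP. In the second set it was 34 of 42 (81.0%, against 87.1%). The 3 others were COX5B, ND-20 and ND-B14, which had no CP190 summit in the window in either mock list of the first set. With any base of a peak counted, COX5B had CP190 in both of these lists. At genes with both proteins, the distance from the summit of the strongest M1BP peak to the nearest CP190 summit was taken. Its median was 55.5 and 54.5 bp in the 2 mock replicates and 29.0 and 29.5 bp in the second set. The nearest CP190 peak was not always the strongest of its gene, as at ND-15, COX7AL2 and ND-B16.6 in the first set.

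The strongest CP190 peaks of complex I lay at genes with no M1BP peak in the first mock set. ND-B8, an accessory subunit, had CP190 folds of 30.8 and 31.6 after M1BP knockdown, against 34.6 and 31.7 in mock cells. ND-B14.5B, another accessory subunit, had 23.4 and 25.7, against 30.6 and 27.0. Both belonged to the 11 genes with weak M1BP in the second set, where the M1BP folds were 6.45 and 5.91 at ND-B8 and 5.71 and 4.10 at ND-B14.5B. High CP190 thus stood beside low M1BP at these 2 genes.

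In the other complexes most of the genes with the highest CP190 folds had M1BP in both mock lists too. ATPsynC had CP190 folds of 23.9 and 28.3 after M1BP knockdown, against 32.6 and 35.8 in mock cells, and ATPsynF had 18.0 and 18.7, against 18.4 and 23.7. UQCR-Q had 25.4 and 26.8, against 34.0 and 25.5, and UQCR-14, a small subunit, had 5.97 and 6.87, against 9.34 and 6.56. SdhC had 18.7 and 17.3, against 20.1 and 21.5, and SdhB had 8.85 and 8.98, against 10.8 and 12.2. In complex IV the highest were COX6B, with 7.65 and 10.8 against 10.6 and 13.1, and COX7AL2, with 11.9 and 14.8 against 11.4 and 12.0. COX6B had no M1BP peak in the first mock set. UQCR-14 had the lowest mean M1BP mock rank, 34.7, of the members with M1BP in both mock lists.

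A gene with a peak in both mock lists counts as lost if both knockdown lists lack one and as retained if both have one. It counts as gained if both knockdown lists and no mock list have one. A lost peak fell short of the threshold the authors set, and some binding may remain. After M1BP knockdown, M1BP was lost at 2 of the 29 genes (6.90%), against 32.1% of all genes with M1BP in both mock lists. It was retained at 26 (89.7%, against 60.2%), and ND-B14 kept it in 1 knockdown list.

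The 2 lost genes were ND-51, the flavin- and NADH-binding core subunit of complex I, and UQCR-14. ND-51 had no M1BP peak in either M1BP knockdown list, against folds of 8.67 and 9.54 in mock cells (chr2L:6062609-6063252 in the first list). UQCR-14 likewise had none, against 8.54 and 6.03 in mock cells (chrX:16286073-16286515). Their mean mock ranks of 40.1 and 34.7 were the lowest of the 29, and those of the 26 retained genes ran from 46.2 to 99.3. CP190 stayed at both genes, with folds of 8.42 and 10.0 after M1BP knockdown against 6.13 and 7.33 in mock cells at ND-51.

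Loss of M1BP went with a low rank in mock cells among all genes too. At ranks from 25 to 50, 2 of 4 members and 61.4% of all genes lost M1BP. From 50 to 75 it was 0 of 17 members and 20.8% of all genes, and above 75 it was 0 of 8 members and 5.33%. No member lay below 25, where 74.2% of all genes lost M1BP. The lists after M1BP knockdown were also shorter, and with all 4 lists cut to the 1699 strongest peaks no member was lost (16.6% of all genes) and 26 of 27 were retained (76.3%). Set against the second mock set, whose M1BP lists held 3844 and 3426 peaks, 13 of 42 members were lost (31.0%, against 48.6% of all genes) and 28 retained (66.7%, against 45.4%).

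**Figure D3:**
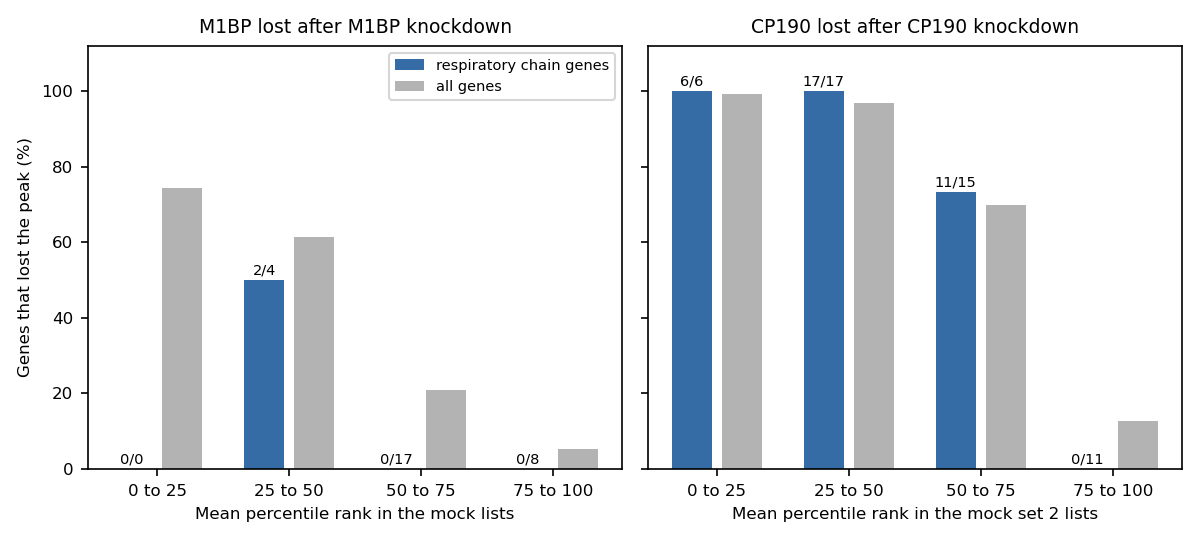
Percent of genes that lost M1BP after M1BP knockdown (left) or CP190 after CP190 knockdown (right), by mean percentile rank in the mock lists, for respiratory chain genes (blue, counts above the bars) and all genes (grey). All-gene bars fall with rank on both sides, and no respiratory chain gene above a rank of 75 lost its peak (0 of 8 for M1BP and 0 of 11 for CP190).

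The call also depends on the window. When any base of a peak may reach the window, 37 members had M1BP in both mock lists and 5 lost it (13.5%, against 31.7% of all genes), the added ones being ATPsynCF6, ATPsynE and ATPsynepsilonL. The peak near ATPsynCF6, a stalk subunit, was strong in mock cells, with folds of 23.5 and 25.0 and ranks of 80.7 and 91.4, and its summits lay 517 and 497 bp outside the gene. After M1BP knockdown no M1BP peak reached this window. Whether the peak itself was gone or only narrower was not tested.

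ND-MWFE, an accessory subunit of complex I, was the 1 gene of 53 called as a gain of M1BP (0.350% of all genes were). It had folds of 6.40 and 10.3 after M1BP knockdown. In mock cells peaks with folds of 21.9 and 16.2 covered the same place, but their summits lay 299 and 336 bp outside the gene, against 55 and 36 bp after knockdown. With any base counted it was retained.

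Ranks of the 26 retained genes depend on list length. In the lists as deposited, in 13 the M1BP rank was lower in both knockdown lists than in both mock lists (54.1% of all retained genes) and in 8 it was higher (21.7%). All retained genes had a median change of -9.48, with lists that were shorter after knockdown. Within lists of equal length the counts turned round, with 4 lower (31.4% of all such genes) and 16 higher (41.5%). The 4 were SdhB, UQCR-C2, ND-PDSW and ND-18, which were lower either way. The following ranks are those in the lists as deposited. SdhB had ranks of 53.0 and 46.3 after M1BP knockdown, against 98.4 and 98.7 in mock cells. UQCR-C2 had 72.9 and 74.9, against 99.3 and 99.1.

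ND-PDSW had M1BP ranks of 82.7 and 84.9 after M1BP knockdown, against 99.0 and 99.6 in mock cells. The largest difference was that of ND-18, with 27.1 and 23.2 against 76.3 and 87.9. All 8 genes that were higher in the lists as deposited were higher either way. They were COX7AL2, ND-39, SdhA, ATPsynD, ATPsynF, ND-ACP, ND-B16.6 and ND-B17.2. COX7AL2 had 95.2 and 84.2, against 59.4 and 70.7. ND-39, an accessory subunit of complex I, had 85.8 and 78.8 against 60.7 and 54.8, and SdhA had 80.7 and 85.8 against 61.8 and 57.8. ATPsynC and ATPsynD kept ranks above 92 in all 4 lists.

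After M1BP knockdown CP190 was lost at 1 of 48 members (2.08%), against 4.64% of all genes with CP190 in both mock lists, and retained at 44 (91.7%, against 90.7%). The lost gene was ND-MWFE, with no CP190 peak after M1BP knockdown, against folds of 5.21 and 3.85 in mock cells. Set against the second mock set it was not called lost. In 1 of those lists the CP190 peak (fold 5.33) had its summit 254 bp outside the gene. SdhA, UQCR-C2 and COX7B kept CP190 in 1 knockdown list each, the second. With any base of a peak counted, SdhA kept CP190 in both knockdown lists, and UQCR-C2 and COX7B did not. Without the second knockdown library 4 members were lost, and without the first mock library 2 were. CP190 was gained at 1 of 31 genes (2.08% of all genes), ATPsynepsilonL, a copy of an ATP synthase subunit gene, with folds of 3.36 and 2.44 after M1BP knockdown and no peak in mock cells. The second of these peaks was near the floor of its list, with a rank of 1.53. The gain was no longer called with a −log10 q of 10 or more.

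None of the 26 members with both proteins lost CP190 after M1BP knockdown, against 7.83% of all such genes, and 1 of the 22 with CP190 but not M1BP in both mock lists did, against 2.40%. That gene, ND-MWFE, counts as without M1BP only by the summit. M1BP peaks with folds of 21.9 and 16.2 in the mock lists covered its CP190 summits, with their own summits 299 and 336 bp outside the gene. Among members that kept CP190, ranks were lower in both knockdown lists at 7 of 23 with M1BP (29.3% of all such genes) and at 0 of 21 without it (15.2%). They were higher at 5 of the 23 (23.2%) and at 10 of the 21 (36.3%). The direction was thus mixed at genes with M1BP and, where it did not overlap, upward at those without. These splits are descriptions, and the difference between them was not tested.

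Among members that kept CP190, lower ranks in both knockdown lists came with strong and with middling M1BP. Mean M1BP mock ranks were 99.3 at ND-PDSW, 98.5 at SdhB and 82.3 at ND-SGDH. They were 72.9 at UQCR-6.4, 63.2 at ND-B17, 56.7 at COX7AL and 51.8 at ND-13A. ND-PDSW had CP190 folds of 4.88 and 4.48 after M1BP knockdown, against 9.15 and 10.5 in mock cells, and ranks of 33.7 and 26.9 against 57.3 and 61.6. UQCR-C2 was not among these members, as it had no CP190 peak in the first knockdown list. Its fold in the second was 3.09, against 5.81 and 7.52 in mock cells. ND-SGDH had ranks of 17.8 and 5.00, against 30.0 and 26.7. At ATPsynC, with a mean M1BP mock rank of 95.9, CP190 ranks of 94.8 and 96.1 overlapped the 94.6 and 97.1 of mock cells. CP190 ranks also overlapped at ATPsynD and ND-18, with mean M1BP mock ranks of 92.6 and 82.1.

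Su(Hw) and Mod(mdg4) were both found at the same 3 members, ND-15, ND-B17 and SdhC, which also carried M1BP and CP190. After M1BP knockdown both proteins were retained at all 3, and no member lost Su(Hw) (0.923% of all genes did, 97.5% retained it) or Mod(mdg4) (2.41% lost and 92.5% retained it). No member gained Su(Hw) (1.23% of all genes).

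SdhC had Su(Hw) folds of 11.9 and 11.7 after M1BP knockdown, against 12.3 and 13.6 in mock cells, and Mod(mdg4) folds of 9.27 and 7.04, against 14.1 and 15.6. Its M1BP summit was 927 and 891 bp away from that of Su(Hw) in the 2 mock replicates, near the other end of the gene, while the Mod(mdg4) summit was 16 and 11 bp away and the CP190 summit 12 and 37 bp. The M1BP peak lay at chr3R:11209330-11210507 and that of Su(Hw) at chr3R:11208612-11209244 in the first replicate. The M1BP and Su(Hw) summits were thus apart at SdhC, while the CP190 peak was wide and also covered the M1BP summit (chr3R:11208462-11210421 in the first replicate).

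At ND-B17, an accessory subunit of complex I, all 4 proteins met at 1 end of the gene, with the M1BP summit 75 and 105 bp from that of Su(Hw). Su(Hw) folds were 4.59 and 3.26 after M1BP knockdown, against 7.03 and 8.65 in mock cells, with a lower mean rank of 23.1 against 35.0. Mod(mdg4) folds were 5.84 and 2.42, against 6.80 and 8.71. ND-15 is an accessory subunit whose annotated span is long and holds other genes. Its window held 3 Su(Hw) sites, and all 3 had a peak in each of the 4 Su(Hw) lists. At the site with the highest mock fold, around chr2L:130706-131637 in the first mock list, Su(Hw) folds were 7.56 and 8.15 after M1BP knockdown, against 11.6 and 9.91 in mock cells. This site lay 24905 and 24872 bp from the M1BP summit in the 2 mock replicates. Mod(mdg4) folds there were 4.53 and 3.24 after M1BP knockdown, against 13.3 and 9.13 in mock cells. At the site that was highest after knockdown (chr2L:118650-119586 in the first list), Su(Hw) folds were 9.18 and 10.5, against 5.25 and 6.87 in mock cells. The Mod(mdg4) folds at that second site were 8.44 and 6.38, against 7.07 and 6.15. By rank, Su(Hw) at the first of these sites overlapped, with 46.2 and 45.2 after M1BP knockdown against 54.4 and 43.9 in mock cells. At the second site the Su(Hw) rank was higher, with 54.2 and 55.7 against 21.6 and 29.5.

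Mod(mdg4) was gained at 1 of 80 members (1.19% of all genes), COX7AL2, with folds of 3.62 and 2.07 after M1BP knockdown and no peak in mock cells. The Mod(mdg4) lists were longer after M1BP knockdown, with 5575 and 4862 peaks against 2999 and 3664. The summits of the 2 knockdown peaks lay 3558 bp apart, so they are not 1 site. The gain was no longer called with lists of equal length, with a −log10 q of 10 or more, or with summits near a gene end.

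After CP190 knockdown CP190 was lost at 34 of 49 members (69.4%), against 66.4% of all genes with CP190 in both lists of the second mock set, and retained at 14 (28.6%, against 25.4%). COX5A kept it in 1 knockdown list. None of 28 members gained CP190 (0.201% of all genes). The members' shares were close to those of all genes. The knockdown lists were much shorter. With all 4 lists cut to the 2031 strongest peaks none of 9 members lost CP190 (11.8% of all genes), all 9 retained it (78.6%) and 3 of 73 gained it (1.34%).

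The 14 retained genes had the stronger CP190 peaks. Their mean CP190 ranks in the second mock set ran from 61.0 to 96.9 with a median of 83.2, and those of the 34 lost genes from 8.11 to 69.3 with a median of 41.7. Over all genes the medians were 86.3 and 40.8. All 11 members above a rank of 75 kept CP190 (76.6% of all genes did). All 6 members up to a rank of 25 lost it (99.2% of all genes did), as did all 17 from 25 to 50 (96.7%).

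At ND-15 and COX7AL2 the strongest CP190 peaks of the 4 lists lay up to 7787 and 4232 bp apart, so retained there does not mean 1 site. The retained genes were ND-15, ND-39, ND-75, ND-B14.5B, ND-B17, ND-B18 and ND-B8 of complex I, SdhC, UQCR-Q, COX6B and COX7AL2, and ATPsynC, ATPsynE and ATPsynF. ATPsynC had CP190 folds of 16.6 and 11.9 after CP190 knockdown, against 22.0 and 27.7 in the second mock set. ND-B8 had 9.65 and 16.0, against 33.8 and 32.1. ND-75, a core iron-sulphur subunit, had 2.93 and 4.74, against 16.5 and 20.7.

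SdhC had CP190 folds of 5.10 and 4.94 after CP190 knockdown, against 20.4 and 17.4 in the second mock set, and UQCR-Q had 9.26 and 7.23, against 29.0 and 32.0. In 13 of the 14 the CP190 rank was lower in both knockdown lists than in both mock lists (85.8% of all retained genes), and in none was it higher (3.23%). The knockdown lists were shorter, and a strong peak takes a lower percentile where weak ones are missing. This direction thus cannot be read as a change in binding. Within lists of equal length, 9 members had CP190 in all 4, and the rank was lower in both knockdown lists at 1 (18.8% of all such genes) and higher at 5 (40.9%).

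The 34 lost genes were 19 of complex I, 2 of complex II, 4 of complex III, 5 of complex IV and 4 of complex V. In complex I they were ND-13A, ND-13B, ND-18, ND-19, ND-23, ND-24, ND-51, ND-ACP, ND-ASHI, ND-B12, ND-B14.5A, ND-B14.7, ND-B15, ND-B16.6, ND-B17.2, ND-B22, ND-MNLL, ND-PDSW and ND-SGDH. The others were SdhB, SdhD, UQCR-14, UQCR-6.4, UQCR-C1, UQCR-C2, COX4, COX7A, COX7AL, COX7B, COX7C, ATPsynB, ATPsynO, ATPsynbetaL and ATPsyngamma. Each had no CP190 peak in either CP190 knockdown list. In the second mock set their folds included 14.1 and 10.6 at ND-13B, 11.6 and 12.7 at ND-PDSW, 10.4 and 13.7 at ATPsynB, a stalk subunit, and 3.70 and 1.95 at SdhD.

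CP190 was lost at 20 of 34 members with M1BP in both lists of the second mock set (62.9% of all such genes) and at 14 of 15 without it (70.5%). CP190 was also weaker at the members without M1BP. Their median CP190 rank in the second mock set was 32.5, against 61.3 at members with M1BP. Over all genes the medians were 51.1 and 56.2. The part of rank in the split by M1BP was not tested. The 1 member without M1BP in both lists that kept CP190 was ATPsynE, with CP190 folds of 6.14 and 4.02 after CP190 knockdown, against 16.5 and 15.4. ATPsynE counts as without M1BP only by the summit. M1BP peaks with folds of 9.46 and 11.1 in the second mock set reached the gene, with summits 300 and 330 bp outside it.

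**Figure D4:**
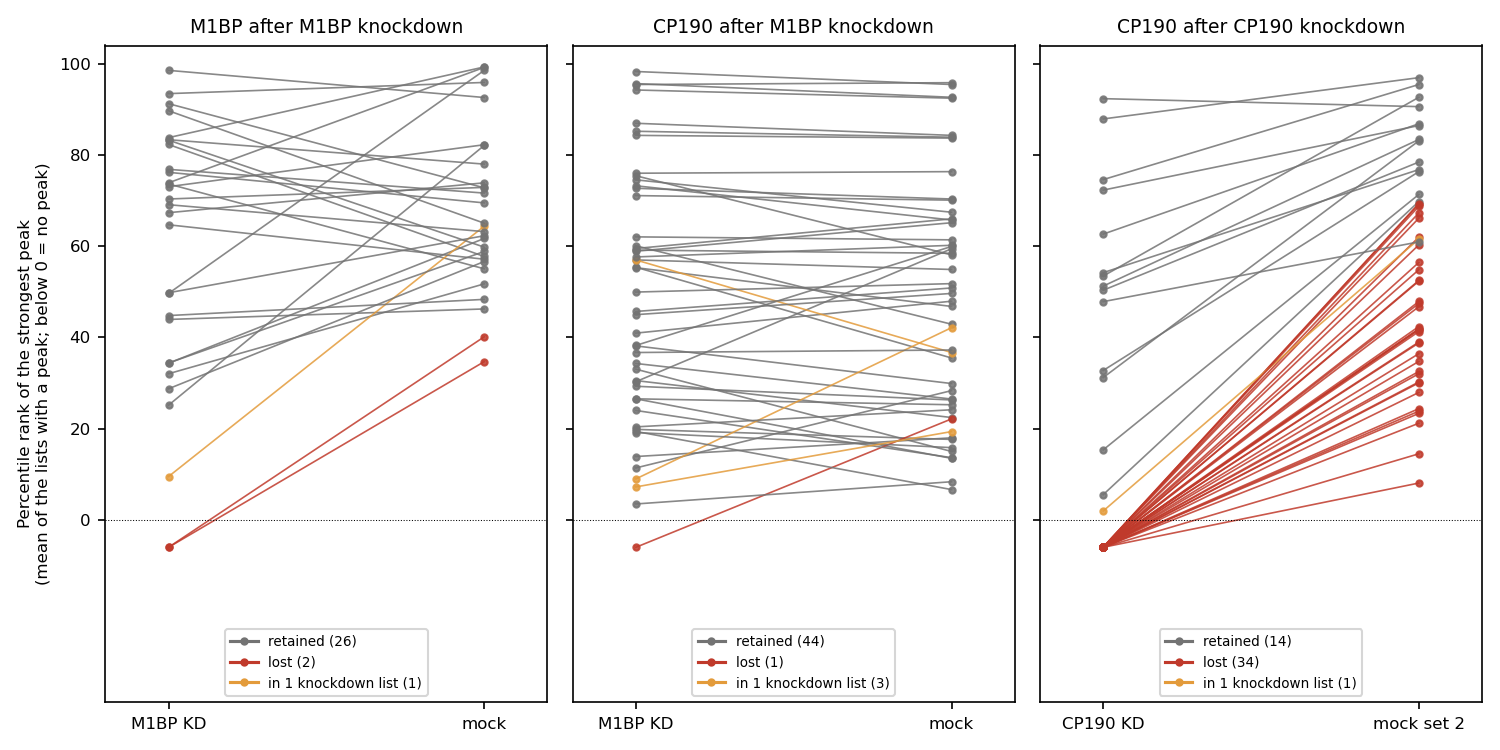
Mean percentile rank of the strongest peak in knockdown lists (left of each panel) and mock lists (right) for each respiratory chain gene with a peak in both mock lists; points below 0 are genes with no peak in either knockdown list. M1BP after M1BP knockdown keeps 26 of 29 genes, CP190 after M1BP knockdown 44 of 48, and CP190 after CP190 knockdown 14 of 49, those with the higher mock ranks. Ranks in shorter knockdown lists cannot be read as changes.

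M1BP stayed after CP190 knockdown. It was lost at 2 of 42 members (4.76%), against 3.91% of all genes with M1BP in both lists of the second mock set, retained at 38 (90.5%, against 89.8%) and gained at 0 of 31 (1.27%). The number lost was 4 without the first knockdown library or the first library of the second mock set, and 5 without the second library of that set. Of the 34 members that lost CP190, 20 had M1BP in both lists of the second mock set, and 19 of these kept M1BP in both knockdown lists, against 90.3% of all such genes. ND-PDSW had M1BP folds of 30.9 and 30.0 after CP190 knockdown, against 38.7 and 45.8 in the second mock set, and UQCR-C2 had 31.6 and 29.3, against 30.9 and 40.5. SdhB had 21.4 and 20.4, against 27.7 and 35.6.

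The 2 lost genes were ND-MLRQ and ND-B15. ND-MLRQ had no M1BP peak after CP190 knockdown, against folds of 4.02 and 2.93 in the second mock set, at summits in different places of the gene. ND-B15, an accessory subunit of complex I, had none in its window, against 14.8 and 14.8. After CP190 knockdown a single wide M1BP peak of chr2R:14755969-14758501 in the first list covered the gene, with its summit 756 bp outside it, where the second mock set had 2 separate peaks. With any base counted ND-B15 was retained.

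Among the 38 retained genes the M1BP rank was lower in both knockdown lists at 9 (20.4% of all retained genes) and higher at 5 (22.4%). ATPsynD had M1BP ranks of 67.6 and 87.7 after CP190 knockdown, against 98.7 and 96.7 in the second mock set. The weak M1BP peaks of the second mock set were retained at 9 of the 11 genes that the first set did not show. COX6B had M1BP folds of 5.03 and 4.60 after CP190 knockdown, against 2.91 and 3.17, and ND-B18 had 7.03 and 6.02, against 3.29 and 3.66.

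Several members come as pairs of a gene and a copy, named by an added L. There were 17 such copies of 15 genes, and 13 of the copies had no peak summit in the window in any of the 24 lists, against 1 of the 15 genes. COX4, COX5B, ND-20, ND-51, UQCR-14 and UQCR-6.4 had M1BP in both mock lists, and their copies COX4L, COX5BL, ND-20L, ND-51L1, ND-51L2, UQCR-14L and UQCR-6.4L had it in neither. COX4L had 1 M1BP peak in all, with a fold of 2.95 after CP190 knockdown. ND-24L, ND-B14.5AL, COX7CL, ATPsynGL, ATPsynCF6L, ND-49L and UQCR-11L had no peak summit in the window in any list, and neither did ND-49.

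COX7A and its 2 copies ran the other way. COX7A had no M1BP peak in the first mock set, and weak ones of 3.26 and 4.09 in the second. COX7AL had M1BP folds of 3.35 and 4.35 after M1BP knockdown, against 14.9 and 13.9 in mock cells, and COX7AL2 had 14.3 and 14.5, against 16.5 and 17.2. The M1BP peaks at COX7AL were wide in mock cells, and the summits of the 4 lists lay up to 886 bp apart. The mock M1BP summits at COX7AL2 lay within 250 bp of an end of CG10874. ATPsynbetaL had CP190 in both lists of the second mock set, with 4.30 and 4.07, while ATPsynbeta had no CP190 peak in any list.

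Of 20 further genes of the pathway, subunits under other symbols, cytochrome c, carriers and assembly factors, 19 were in the gene table. M1BP was in both mock lists at 10 of them (17.6% of all genes) and CP190 at 12 (34.0%). Cyt-c-p and Cyt-c-d, the cytochrome c genes, had the same peak in all 16 M1BP and CP190 lists, so these counts hold it doubly. After M1BP knockdown M1BP was lost at 3 of the 10 (Cyt-c1, Surf1 and Cox10), a share near the 32.1% of all genes, and retained at 7. CP190 was lost at 0 of 12 after M1BP knockdown (4.64% of all genes) and at 7 of 13 after CP190 knockdown (66.4%). M1BP was lost at 0 of 13 after CP190 knockdown (3.91%). blw, which encodes the alpha subunit of the ATP synthase, had M1BP folds of 4.18 and 7.10 after M1BP knockdown, against 38.7 and 38.0 in mock cells, and no CP190 peak in any list. Mpcp2, a phosphate carrier, had 11.0 and 21.5, against 52.3 and 36.9.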

How the data were processed

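ChIP-seq peak lists of 24 libraries, 2 for each of 12 combinations of antibody and treatment, were used, and 8 input libraries of the 32 were not analysed here. Software named in the submitters' processing notes was MACS2 2.2.5, Picard 2.20.2, SAMtools 1.9 and Bowtie2 2.3.5, with no order or options stated in the sources used here. The peak names in the deposited lists carry 1 library each, so calling was done library by library. The deposited fold enrichment, a ratio, was used only to describe and rank peaks within a list. The deposited score follows the −log10 q and was not used. Significance is deposited as −log10 p and −log10 q, with 1.30 the smallest −log10 q (a threshold of q = 0.05). The other deposited value places the summit, counted in bp along the peak. Peak numbers were missing in 19 lists, 33 in all, and none of them fell between neighbouring peaks of 1 sequence.

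Genes came from a RefSeq gene table without strand, and 3 mitochondrially encoded genes with matching symbols were left out. Peaks were assigned, classed and ranked in Python 3.11.15 with pandas 2.3.3, and the classes were checked on simulated peaks. Most counts stand beside the same count over all 17807 nuclear genes. The named genes are all lost and gained members, the 3 with the highest M1BP and the 2 with the highest CP190 mean mock fold of each complex, those with Su(Hw) or Mod(mdg4), and the copies with their parent genes. Further genes named outside this rule were chosen after their values were seen. The members, lists, naming rule and alternatives were chosen with earlier results of these data known. No genome sequence was used here, and a planned motif search was not run; a planned test of gene starts was replaced by gene ends.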

Additional observations from a re-analysis of the deposited data

Results flagged for a closer look

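Peaks were also called on the mitochondrial genome, which encodes the other subunits of the respiratory chain and was not part of the comparisons. The lists of 2 proteins stood out by their number of such peaks. After M1BP knockdown CP190 had 6 and 8, against 4 and 12 in mock cells. Mod(mdg4) had 18 and 4 after M1BP knockdown, against 4 and 5 in mock cells. The knockdown and mock values overlapped for both proteins. In all, 77 such peaks were found in 16 of the 24 lists, and 38 of them had a summit in a mitochondrial protein-coding gene. The 4 CP190 lists of the CP190 knockdown and the second mock set had none. The cause was not tested.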

How the results depend on the processing

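The 6 counts of members with a peak in both mock lists stayed within 1.5 times under the alternatives run (gene ends, any base of the peak, −log10 q of 10 or more, and leaving out each library). Counts of lost members are small and moved more, and the cause was not tested unless given. M1BP after M1BP knockdown was lost at 2 members, at 5 with any base of the peak, 4 with −log10 q of 10 or more, 0 with lists of equal length and 13 against the other mock set. CP190 after M1BP knockdown was lost at 1 member, at 2 with gene ends and at 2 with −log10 q of 10 or more, and at 1 to 4 when each library was left out. CP190 after CP190 knockdown was lost at 34, at 0 with lists of equal length, which keep the 2031 strongest peaks of each, and at 33 to 41 under the rest. M1BP after CP190 knockdown was lost at 2, at 1 with any base of the peak, 1 with −log10 q of 10 or more, 0 against the other mock set, and 2 to 5 when each library was left out. No call of a single member turned into its opposite. Counts called lost rest on the authors' threshold in 2 lists a group. Ranks within lists of equal length, an alternative chosen after seeing the data, turned the balance of lower and higher ranks round. The knockdown lists are shorter, and what list length alone did was not tested. No paired analysis was possible because the results are counts and ranks that come from no test.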

Other observations

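Other genes of the same pathway, from the list given last in the results, were measured in the same lists. The peak shared by Cyt-c-p and Cyt-c-d, the cytochrome c genes, had M1BP folds of 9.32 and 12.9 after M1BP knockdown, against 30.1 and 22.6 in mock cells. The CP190 peak they shared had folds of 4.73 and 4.61 after M1BP knockdown, against 15.0 and 10.5 in mock cells. Surf1, an assembly factor of complex IV, had no M1BP peak after M1BP knockdown, against folds of 10.7 and 13.2 in mock cells. Cox10, another assembly factor, had none, against 11.9 and 10.4. RFeSP, the iron-sulphur protein of complex III, had CP190 folds of 9.26 and 12.6 after CP190 knockdown, against 19.2 and 17.7 in the second mock set. Mpcp2 was the 1 gene of the 19 with Su(Hw) in both mock lists (9.74% of all genes). It had no Su(Hw) peak after M1BP knockdown, against folds of 3.31 and 3.04 in mock cells.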
